A study of Glycine max with 6 samples.

Results

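SWEET proteins are sugar transporters of plant membranes, and 3 soybean members of the family, SWEET31, SWEET34 and SWEET42, were compared here between 2 cell layers of the leaf. Their probe sets were taken as all those whose single gene symbol in the platform annotation is one of these names, which gave 4 of the 37593 soybean probe sets on the array, or 4 of 61170 probe sets in all. SWEET31 is represented by 2 probe sets, called the bright and the dim one below, and SWEET34 and SWEET42 by 1 each. All 4 were above background on enough arrays to be tested.

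The layers were paraveinal mesophyll (PVM), a sheet of cells that runs between palisade and spongy tissue at the level of the veins, and palisade parenchyma (PP), the upper photosynthetic layer, with 3 biological replicates each. Plants of both groups were untreated and their leaves mature, per the labels. They were raised in growth chambers under 16 h of light at 25 °C and 8 h of darkness at 18 °C. Cells were cut by laser from sections of fixed, paraffin-embedded leaves, the cells of each sample were pooled, and the RNA was amplified and hybridised to one-colour Affymetrix arrays.

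SWEETs move sugars down their concentration gradient in either direction, so that a cell with the protein in its plasma membrane can release or take up sugar. In Arabidopsis leaves, SWEET proteins of phloem parenchyma release sucrose into the cell wall space, from which proton-coupled sucrose transporters of the SUT or SUC type load the phloem, and other members of the family sit in the vacuole membrane. Which sugars SWEET31, SWEET34 and SWEET42 carry, and in which membrane, is not stated in the sources used here. In the RefSeq table for Glycine_max_v4.0, all 3 are protein-coding genes. SWEET31 (gene 100777281) has 1 curated transcript, SWEET34 (gene 100305842) has 2, and SWEET42 (gene 100790469) has 4 predicted mRNAs and no curated one. None of the 3 lies directly beside another gene with a SWEET symbol in that table. Their neighbours have only LOC numbers, so a SWEET gene without a symbol would not be seen.

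The values are deposited linear intensities. The array also has 23350 probe sets for a pathogen and a nematode of soybean, and background was taken as their 95th percentile on each array. It lay between 11.0 and 15.5 on the PVM arrays and between 17.2 and 20.7 on the PP arrays. PP arrays 1 and 2 correlated at 0.947 over the tested probe sets, while all other pairs of arrays lay between 0.811 and 0.885. PP array 3 had the smallest share of soybean probe sets above background, 58.4%, against 63.9% to 68.5% on the other arrays. The labelled layers were set beside marker genes. These lists were chosen with earlier results of these data known, so they give no independent check of the labels. Storage proteins and lipoxygenases mark paraveinal cells. All 23 of their tested probe sets, which stand for only 5 genes, lay on the PVM side (median log2 difference 1.96). The summed intensity of all 24 on the list was 96495 to 108390 on PVM arrays and 42257 to 63721 on PP arrays. Photosynthesis probe sets, also of 5 genes, had a summed intensity, before normalization, of 66694 to 93962 on PVM arrays and 108325 to 121794 on PP arrays. After normalization the photosynthesis markers differed little, with 8 of 11 tested on the PP side (median -0.25). Among these 11, 3 had no overlap with PP higher, as had 10.1% of all tested probe sets, and 0 had an unadjusted limma p under 0.05. Of all 25314 tested probe sets, 11713 lay on the PVM side and 13601 on the PP side. The part of these markers in the SWEET values was not tested. No marker probe set passed the threshold, and no epidermal marker on the list had a named probe set.

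On its bright probe set SWEET31 was well above background in both layers, and every palisade array exceeded every paraveinal array. The difference did not pass the threshold over all probe sets tested. The intensity of the bright probe set was 370 on PVM array 1, 240.04 on PVM array 2 and 454 on PVM array 3. It was 764 on PP array 1, 734 on PP array 2 and 1083 on PP array 3. The layers did not overlap: the lowest palisade array was well above the highest paraveinal array. The means were 355 ± 108 in PVM and 860 ± 193 in PP (SD, n = 3 arrays per layer), and each of the 6 arrays lay above background, by 21.9 to 29.3 times in PVM and by 38.7 to 52.4 times in PP. Expressed as multiples of the array's own background, the layers therefore also did not overlap.

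After quantile normalization of log2(intensity + 16), SWEET31 differed by -1.30 (SE 0.36, PVM minus PP), with a 95% interval of -2.15 to -0.45 and 2.46-fold more in PP. In limma the unadjusted p was 0.00806 and the Benjamini-Hochberg adjusted p over 25314 tested probe sets was 0.246. By that adjusted test none of the 4 SWEET probe sets passed at a threshold of 0.05, against 0.0435% of all tested probe sets that passed as higher in PVM and 0% as higher in PP. By an unadjusted p under 0.05, 1 of the 4 SWEET probe sets was higher in PP, a threshold that 5.63% of all tested probe sets met in that direction and 6.53% in the other. SWEET31 ranked 826 of 25314 by p, and 2.96% of the tested probe sets had an equally low or lower log2 difference. Among all tested probe sets, 10.1% had no overlap between layers with PP higher and 8.62% with PVM higher, so a lack of overlap was frequent in this comparison. In samples of pooled cells, fewer cells of a type and less RNA per cell cannot be told apart.

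The dim probe set of SWEET31 was close to background. Its intensity was 31.9, 9.68 and 29.6 on PVM arrays 1 to 3 and 26.0, 25.0 and 23.1 on PP arrays 1 to 3. All 3 PP arrays were above background, but by no more than 1.51 times, and PVM array 2 was below it. The paraveinal arrays spanned the palisade values, so the layers overlapped. The log2 difference was -0.01 (SE 0.32, 95% interval -0.75 to 0.74, limma adjusted p = 0.998), and its sign turned under some settings. The interval overlaps that of the bright probe set but does not hold its log2 difference of -1.30. Within arrays the 2 probe sets did not keep the same ratio. The log2 ratio of bright to dim was 2.94 to 3.54 on PVM arrays and 4.35 to 4.71 on PP arrays, without overlap. With 1 in place of 16 added before the log, the dim probe set differed by -0.03 (SE 0.39). At intensities this close to background, the dim probe set cannot show whether SWEET31 differs between layers. The account of SWEET31 above rests on the bright one alone. None of the 4 SWEET probe set identifiers carries the letters by which the array's maker marks probe sets that share sequence with other transcripts.

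**Figure D1:**
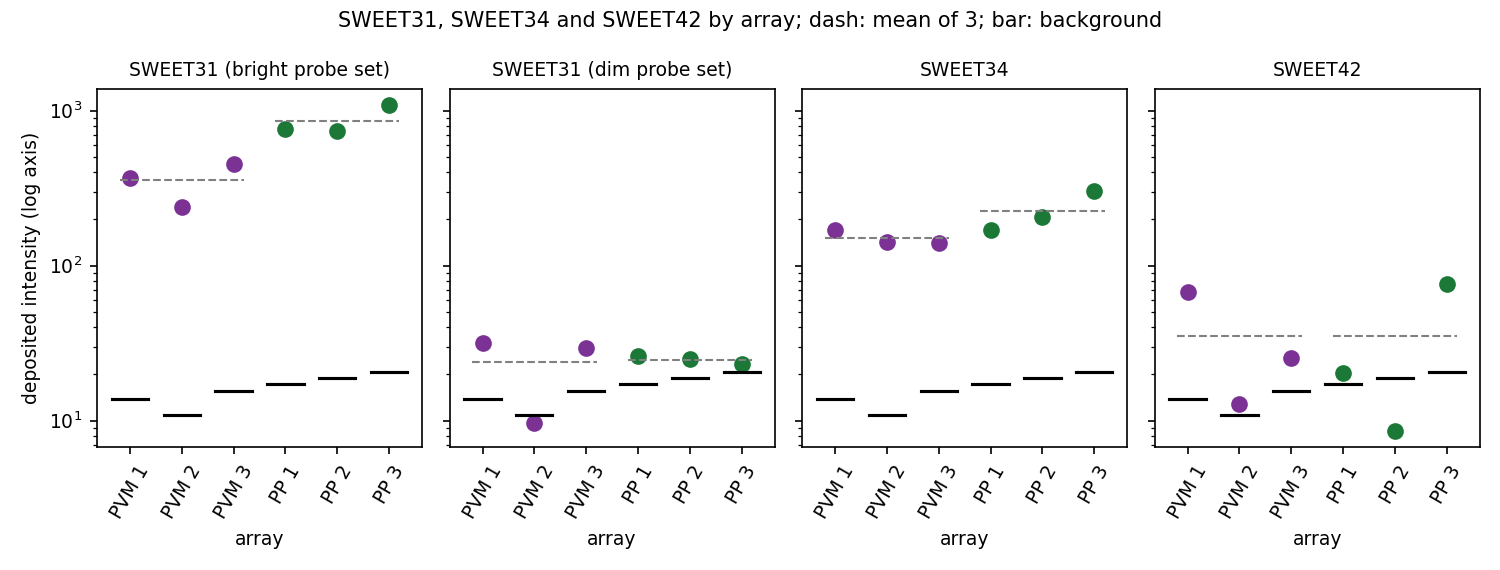
Deposited intensity on a log axis for the 4 probe sets of SWEET31, SWEET34 and SWEET42, with a point for each PVM array (purple) and PP array (green), a dashed line for the mean of 3 arrays and a black bar for the background of each array. The bright SWEET31 probe set lies between 240.04 and 454 in PVM and between 734 and 1083 in PP, while SWEET42 spreads from 8.59 to 76.5 in PP alone.

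SWEET34 was above background on every array of both layers, and its layer difference did not pass the test. Its intensity was 170.3 on PVM array 1, 143 on PVM array 2 and 141 on PVM array 3, against 169 on PP array 1, 206 on PP array 2 and 303 on PP array 3. PP array 1 fell just under PVM array 1, so the deposited values overlapped, and PP array 3 stood above the rest. The means were 151 ± 16.5 in PVM and 226 ± 69.2 in PP (SD, n = 3 arrays per layer). All 6 arrays were above background, by 9.07 to 13.0 times in PVM and by 9.84 to 14.7 times in PP, ranges that overlapped.

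After normalization the SWEET34 arrays no longer overlapped, at 7.15 to 7.48 in PVM and 7.55 to 8.38 in PP on the log2 scale. The log2 difference was -0.60 (SE 0.34), with a 95% interval of -1.41 to 0.20, an unadjusted p of 0.122 and an adjusted p of 0.530 in limma. The interval holds 0 as well as differences larger than the one fitted for SWEET31. Without PP array 3 the log2 difference was -0.37. Of the 4 SWEET probe sets, SWEET34 and the bright SWEET31 probe set were the 2 without overlap after normalization, both higher in PP, as were 10.1% of all tested probe sets.

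SWEET42 was dim, and its values were more scattered between arrays of one layer than between layers. Its intensity was 67.6 on PVM array 1, 12.8 on PVM array 2 and 25.2 on PVM array 3. In the palisade it was 20.4 on PP array 1, 8.59 on PP array 2 and 76.5 on PP array 3. All 3 PVM arrays were above background, PVM array 2 by 1.17 times, and 2 of 3 PP arrays were, PP array 2 being below. The highest values came from 1 array of each layer, PVM array 1 and PP array 3, so the layers overlapped throughout.

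The SWEET42 means were 35.2 ± 28.7 in PVM and 35.2 ± 36.3 in PP (SD, n = 3 arrays per layer), the highest palisade array being 8.90 times the lowest. The log2 difference was 0.11 (SE 0.63), with a 95% interval of -1.35 to 1.58 and an adjusted p of 0.963 in limma. Leaving out PVM array 1 turned it to -0.26, leaving out PP array 1 to -0.07 and leaving out PP array 2 to -0.35. The interval is too wide to place the SWEET42 difference above or below that of SWEET31. The residual SD of SWEET42 on the normalized log2 scale was 0.93, larger than that of 83.7% of tested probe sets. For the bright SWEET31 probe set it was 0.37, larger than that of 23.9%, and for SWEET34 it was 0.32, larger than that of 17.5%.

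PP array 3 gave the highest palisade value of SWEET31, SWEET34 and SWEET42 on their brightest probe sets. It is also the array with the highest background, whose part in these values was not tested. Without it, the log2 differences were -1.13 for SWEET31, -0.37 for SWEET34 and 0.77 for SWEET42, so the first 2 kept their sign and were smaller. With PP arrays 1 and 2 averaged into 1 sample, the differences were -1.38, -0.72 and -0.20. SWEET31 stayed between -1.52 and -1.06 with any 1 array left out, and between -1.38 and -1.15 under the other settings, without passing the threshold in any of them.

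**Figure D2:**
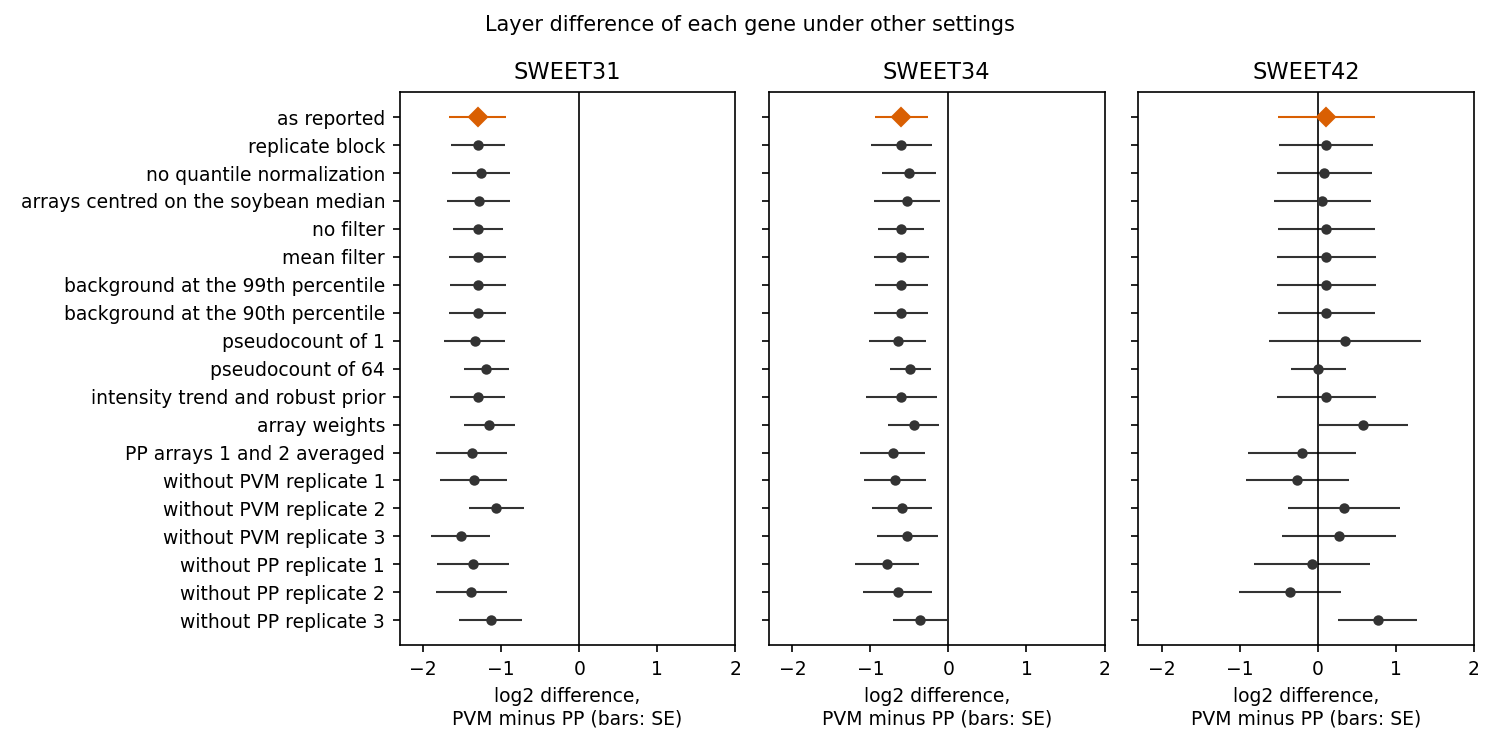
Log2 difference, PVM minus PP, of SWEET31, SWEET34 and SWEET42 on their brightest probe sets as reported (diamond) and under 18 other settings (circles), with bars for the standard error. SWEET31 lies between -1.52 and -1.06 throughout, SWEET34 between -0.79 and -0.37, and SWEET42 on both sides of 0, from -0.35 to 0.77.

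Whether the layer difference was unequal between the 3 genes was asked from the ratio of their brightest probe sets within each array, in 3 pairs. The log2 ratio of SWEET31 to SWEET34 was 1.14 ± 0.54 in PVM and 1.84 ± 0.21 in PP (SD, n = 3), a layer difference of -0.70. In PVM the arrays ran from 0.64 to 1.71 and in PP from 1.68 to 2.08, so that PVM array 3 overlapped the palisade arrays. The ratio of SWEET31 to SWEET42 differed by -1.41 between layers and that of SWEET34 to SWEET42 by -0.72. By a two-sided exact permutation test over the arrays, p was 0.2, 0.2 and 0.4 for the 3 pairs, where 3 arrays against 3 can give no p under 0.1. Since no outcome could have passed 0.05, the test cannot say whether the layer differences are unequal. Without quantile normalization and with a pseudocount of 64, the ratios of SWEET31 to SWEET34 and to SWEET42 did not overlap between layers and had the smallest p possible, 0.1.

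The other SWEET genes named on the array were at or near background. The RefSeq table holds 43 genes with a SWEET symbol, and 8 of them had a probe set with a single symbol, 10 probe sets in all. The 6 probe sets of the other 5 genes, SWEET13, SWEET17, SWEET24, SWEET28 and SWEET29, were above background on fewer than 3 arrays each and were not tested. Both SWEET17 probe sets and that of SWEET24 were at or below background on all 6 arrays. SWEET13 was just above background on 2 PVM arrays and on no PP array, at 14.7 ± 4.59 in PVM and 18.1 ± 1.79 in PP, and SWEET28 was above it on 1 PP array.

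SWEET29 was above background on 2 palisade arrays. Its intensity was 8.18, 3.13 and 2.50 on PVM arrays 1 to 3, all at or below background, and 12.6, 31.8 and 45.3 on PP arrays 1 to 3. Palisade arrays 2 and 3 were above background and array 1 was not. By the bound against background, which gives a minimum fold, the SWEET29 mean was 1.40-fold higher in PP. This fold takes no account of the spread between arrays. In the setting with no filter on dim probe sets its fitted log2 difference was -1.04, with an adjusted p of 0.426 in limma over 37593 probe sets.

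**Figure D3:**
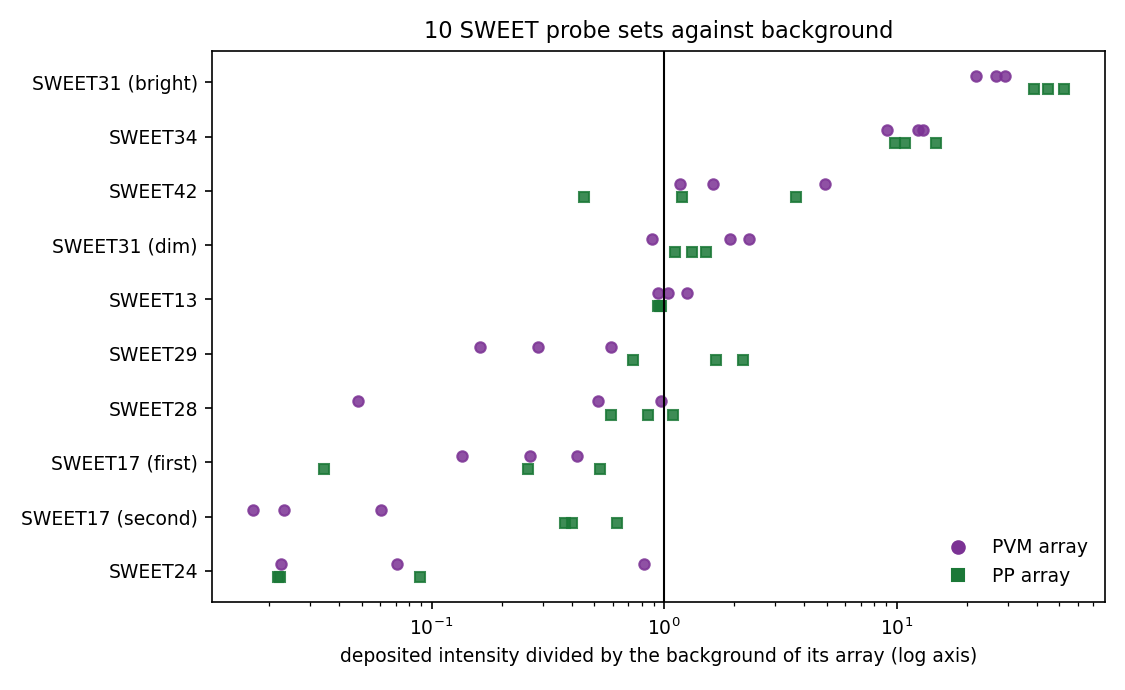
Deposited intensity divided by the background of the same array, on a log axis, for the 10 SWEET probe sets, with circles for PVM arrays, squares for PP arrays and a vertical line at background. The bright SWEET31 probe set and SWEET34 lie above the line on all 6 arrays, and the probe sets of SWEET17 and SWEET24 below it on all 6.

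Other genes of sugar transport and of sucrose and starch metabolism were described from a list of symbols that includes the SWEETs, with 28 probe sets of 17 genes, of which 20 probe sets of 11 genes were tested. None passed the threshold. Outside the SWEET family, 7 of 16 tested probe sets lay on the PVM side and 9 on the PP side. Their median log2 difference was -0.19, against -0.06 over all tested probe sets. By an unadjusted p under 0.05, 2 of the 16 were higher in PVM and 2 were higher in PP, where 6.53% and 5.63% of all tested probe sets were.

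SUT1, a sucrose transporter of the proton-coupled kind that acts after SWEET efflux in phloem loading, had 3 tested probe sets and overlapping layers on each. On its brightest probe set it measured 617, 469 and 199 on PVM arrays 1 to 3 and 252, 284 and 131 on PP arrays 1 to 3. On that probe set PVM array 1 was highest and PP array 3 lowest, an order unlike that of SWEET42, for which both arrays were high. The log2 difference of that SUT1 probe set was 0.69 (SE 0.50, limma adjusted p = 0.641), and those of its other probe sets were 0.37 and -0.40. The order of arrays was not shared by all SUT1 probe sets. The probe set at 0.37 measured 334 on PVM array 1 and 32.4 on PP array 3. The probe set at -0.40 was lowest on PVM array 1, at 13.2, and highest on PP array 3, at 235. STP1 and STP, sugar transport proteins by their symbols, also overlapped between layers, with differences of 0.33 and 1.28 for the STP1 probe sets and -0.26 for STP.

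The phloem list held SUT1 and SEO-F3, a gene of the sieve element occlusion family whose proteins plug sieve tubes. Its summed intensity ran from 283 to 977 on PVM arrays and from 378 to 526 on PP arrays. Both SEO-F3 probe sets were at or below background on all 6 arrays, so the sieve-element gene on the list was not well above background in either layer.

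Of the metabolic genes, SS, a sucrose synthase that splits sucrose in the cytosol, had its smallest p on a probe set that measured 117, 38.0 and 72.9 on PVM arrays 1 to 3. It was not above background on any of the 3 PP arrays, and by the bound against background, a minimum fold, its mean was 2.53-fold higher in PVM. It entered the test only through the PVM arrays and was named for its small p. Neither this fold nor its limma adjusted p of 0.162 therefore adds support. Its brightest probe set differed by 2.10 (SE 1.19, limma adjusted p = 0.525), with 785 on PVM array 1 and no more than 18.4 on any other array. The beta-amylase LOC547931, which releases maltose from starch, measured 3275 ± 183 in PVM and 1577 ± 545 in PP, a difference of 1.25 (SE 0.35, limma adjusted p = 0.246). The probe sets of BMY2, a beta-amylase by its symbol, lay on the other side with overlapping layers, at -0.12, -0.27 and -0.61. The brightest of them measured 2558 in PVM and 3172 in PP. On the palisade side, GOLS, the galactinol synthase that starts raffinose synthesis, measured 14.0 ± 5.63 in PVM, above background on 2 arrays, and 72.3 ± 6.13 in PP, a difference of -1.52 (limma adjusted p = 0.177). LOC547684, whose synonym BMY1 is shared with LOC547931, had 3 tested probe sets, all lower in PVM, at -0.74, -0.92 and -1.61. The last of these was above background on 1 PVM array and 3 PP arrays, so its size depends on values near the floor. LOC547931, GOLS and this LOC547684 probe set were also named for their small p. GOLS and the LOC547684 probe set would have entered the test by their PP arrays alone. The limma p-values of these genes therefore add no support either.

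**Figure D4:**
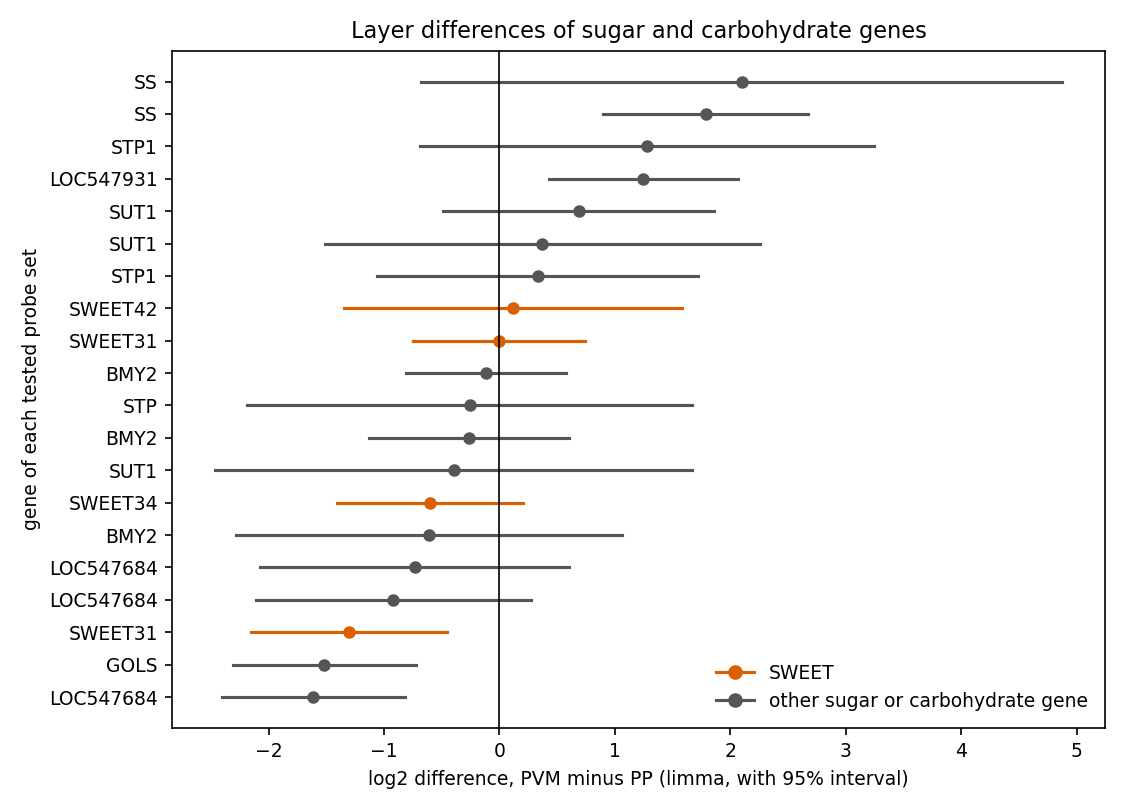
Log2 difference, PVM minus PP, with its 95% limma interval for the 20 tested probe sets of sugar and carbohydrate genes, SWEET genes in orange and others in grey. The bright SWEET31 probe set at -1.30 lies near GOLS at -1.52, and the SUT1 probe sets lie on both sides of 0.

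The genes whose pattern over the 6 normalized arrays was most like that of each SWEET were taken from 693 genes with a symbol, by Pearson correlation. These correlations are descriptions over 6 arrays that share their scaling and fall into 2 layers. For SWEET31 they were ADC at 0.989, PTF1 at 0.979 and OAS-TL4 at 0.973. PTF1 measured 284 ± 79.5 in PVM and 576 ± 152 in PP. For SWEET34 they were IQD45 at 0.974, MYB136 at 0.959 and DHBK at 0.956, and for SWEET42 FAD3C at 0.951, PEPC17 at 0.924 and CEL12 at 0.921. FAD3C, an omega-3 fatty acid desaturase, was high on the same arrays as SWEET42, at 294 on PVM array 1 and 388 on PP array 3, and at 48.2 to 148 on the other arrays. The choice depended on the scaling: without quantile normalization 1 of the 9 genes was chosen again, and 3 were when the soybean median of each array was set equal.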

How the data were processed

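The authors deposited 1 linear intensity per probe set for each of 3 PVM and 3 PP samples. The program behind these intensities is not stated in the sources at hand. Their 2% trimmed mean was 125 on each array, which points to a scaling by the authors to a common mean. Groups follow the sample titles, since the description field of the palisade samples names the other layer.

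Intensities were taken as log2(intensity + 16) and quantile-normalized over all 61170 probe sets, a scale that understates the change of dim probe sets. Soybean probe sets above background on at least 3 of 6 arrays entered the test (25314). It used limma 3.58.1 in R 4.3.3, 2-sided and without covariates. P-values were adjusted by Benjamini-Hochberg, 0.05 was the threshold, and simulated data served to test the fit. The number of arrays limits the precision. Each limma p-value sets the layer difference against the spread between arrays of a layer, moderated over all tested probe sets. Same-numbered PVM and PP arrays deviated from their layer means with correlations of 0.02, 0.03 and 0.05, against -0.04 to 0.01 for pairs with unlike numbers. Same-numbered pairs were thus highest, but all correlations were small, and the numbers were not taken to pair the arrays. A fit with the replicate block is given among the alternatives.

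The SWEET genes and the gene lists were chosen with earlier results of these data known. Named were all probe sets of the 3 genes, the 3 genes most like each by correlation, and list genes with an unadjusted p under 0.05. The other SWEET genes, SUT1, STP, STP1, BMY2 and SEO-F3 were named after their values had been seen. A gene stands by its brightest probe set unless another is described. A bound sets the brighter layer against the dimmer one with each dim array at its own value or, if higher, at the lowest value among soybean probe sets above background. The spread between arrays does not enter a bound. Symbols came from the platform annotation, updated through the RefSeq table, which 8652 of 9047 annotated probe sets matched. No coordinates are printed, since no genome build is named with the values. Alternatives varied the replicate block, scaling, filter, background level, pseudocount, prior, array weights, PP arrays 1 and 2 averaged, and the arrays left out.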

Additional observations from a re-analysis of the deposited data

How the results depend on the processing

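Of the results on single genes, SWEET31 on its bright probe set and SWEET34 kept their sign and stayed short of the threshold under all 18 alternatives, with adjusted p values of 0.145 to 0.541 and 0.494 to 0.755 in limma. SWEET31 ran from -1.52 to -1.06 and SWEET34 from -0.79 to -0.37 with 1 array left out. SWEET42 ran from -0.35 to 0.77 in the same way, and was -0.20 with PP arrays 1 and 2 averaged. Its sign turned without PVM array 1, PP array 1 or PP array 2. The dim SWEET31 probe set ran from -0.16 to 0.17 with 1 array left out, and turned to 0.0034 with a pseudocount of 64 and 0.058 with array weights. The replicate block left the differences at -1.30, -0.60 and 0.11, with limma adjusted p values of 0.303, 0.596 and 0.960. It changed no call on a SWEET probe set. The beta-amylase LOC547931 passed with the intensity trend and robust prior (adjusted p = 0.0402 in limma). The within-array ratios between SWEET genes kept their sign under the scalings and pseudocounts tried. The exact permutation p ran from 0.1, the smallest possible, to 0.3 for SWEET31 to SWEET34 and for SWEET31 to SWEET42, and from 0.2 to 0.5 for SWEET34 to SWEET42. It was 0.1 for both SWEET31 ratios without quantile normalization, with median centring and with a pseudocount of 64.

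The number of probe sets called higher in PVM, 11, was 0 with the replicate block, 5 with no filter, 1 with a pseudocount of 1, 54 with a pseudocount of 64, 136 with the intensity trend, 0 with PP arrays 1 and 2 averaged, and 0 to 3 with 1 array left out. The number called higher in PP, 0, was 3 with a pseudocount of 64 and 13 with the intensity trend. The cause was not tested. Values near background, as for SWEET42 and the dim SWEET31 probe set, limit what these arrays can show.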
